A study of Mus musculus with 24 samples.

Results

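JARID2, AEBP2, MTF2, PHF1 and PHF19 are accessory subunits of Polycomb repressive complex 2 (PRC2), and the RNA of their 5 genes was followed in mouse embryonic stem cells and in embryoid bodies grown from them. The genes were taken by symbol (Jarid2, Aebp2, Mtf2, Phf1 and Phf19) from a deposited table that holds raw counts of reads under 23284 gene symbols. All 5 were in the table, and all 5 passed the filter on low counts that left 15220 genes for testing.

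The poly(A) RNA came from C57BL/6 cells, kept on embryonic fibroblast feeders in medium with serum and LIF. The labels describe a conditional Eed line, in which 800 nM 4-OH tamoxifen was used to delete Eed, the gene of a core PRC2 subunit, and 4 genotypes were sampled. KO+N-KR cells were treated with tamoxifen and carry the form of EED labelled N-KR, which the labels do not spell out. KO+WT cells were treated with tamoxifen and carry wild-type EED. KO cells were treated with tamoxifen and carry no added EED, and f/f cells are the conditional line without tamoxifen. Each line was sampled as stem cells, in the state called 3i by the labels, and after 1 or 2 days as embryoid bodies, which makes 12 groups of 2 libraries. KO+N-KR, KO+WT and KO differ from f/f in tamoxifen as well as in EED. Each genotype is a single line as far as the labels say, so genotype cannot be told apart from line history. The Cre and its driver are not named in the labels. Groups come from the sample titles, because the genotype given for either rescue line is that of the knockout.

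Library totals ran from 7553683 to 14426034 counts. Within a group the variance between the 2 libraries was 1.10 to 1.18 times that of binomial sampling, against 2.81 to 11.3 times between genotypes of a state, and separate cultures are not mentioned in the labels. Their counts were summed, which gave 12 samples of 18017598 to 25160294 counts, and a genotype in 1 state is 1 sample with no replicate. Eed stood at 170, 181 and 121 CPM at 3i, day 1 and day 2 in KO+N-KR, at 388, 372 and 187 CPM in KO+WT, at 139.6, 172 and 102 CPM in KO and at 176, 219 and 131 CPM in f/f, where CPM is the count scaled to library size with TMM factors. Neither the Eed exons that were counted nor the deleted exons are given, so these levels do not check the deletion. Pluripotency genes (Pou5f1, Sox2, Nanog, Zfp42, Esrrb and Klf4) summed to 3190.3 to 4029 CPM at 3i, 2528 to 2804 CPM at day 1 and 1741 to 1927 CPM at day 2 over the 4 genotypes. At day 1 against 3i, 5 of these 6 genes fell while Pou5f1 rose, in f/f from 949 to 1440 CPM. At day 2 against 3i the same 5 fell and Pou5f1 did not pass the test. Formative epiblast genes (Fgf5, Otx2, Dnmt3b and Pou3f1) summed to 80.0 to 103 CPM at 3i, 785 to 1429 CPM at day 1 and 551 to 1675 CPM at day 2. Dnmt3b made up most of that sum in every sample. Of 8 feeder fibroblast markers, the summed level was 358 to 600.2 CPM at 3i, 35.4 to 67.1 CPM at day 1 and 37.4 to 89.1 CPM at day 2. Col1a1 and Col1a2 made up most of the sum at 3i, and at day 2 against 3i 5 of the 7 markers tested fell while Thy1 and Dcn rose. Lum, the only marker of that list at 0 in any sample, was at 0 in 3 of the 12. In such bulk samples, fewer cells of a type and less RNA per cell cannot be told apart.

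PRC2 methylates lysine 27 of histone H3 through its core of EED, SUZ12 and EZH1 or EZH2. Accessory subunits bind this core in alternative sets. The Polycomb-like proteins MTF2, PHF1 and PHF19 define PRC2.1 and bring the complex to unmethylated, CpG-rich DNA, while JARID2 and AEBP2 define PRC2.2, which is drawn to chromatin carrying ubiquitylated histone H2A. In mouse embryonic stem cells MTF2 and JARID2 are the best studied of these subunits, and loss of JARID2 impairs differentiation. According to its title the series is about breakdown of PRC2 mediated by SKP1A, which belongs to SCF ubiquitin ligases, and the comparisons below ask how the transcripts of the accessory subunits stood when EED was deleted or put back and as the cells left the stem cell state.

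The promoters of 4 of the genes are shown because their transcripts moved most between states, Jarid2 and Phf19 with a peak at day 1 and Mtf2 and Phf1 downward from 3i. The sequences are RefSeq windows on GRCm38.p6, 250 bases before to 50 bases after a transcript start, 5′ to 3′ on the gene's strand, and capitals mark each CpG (the letters CG, read alike on both strands). They are chr13:44730524-44730823 (+) for Jarid2, chr2:34913927-34914226 (−) for Phf19, chr5:108065424-108065723 (+) for Mtf2 and chr17:26932877-26933176 (+) for Phf1.
Jarid2: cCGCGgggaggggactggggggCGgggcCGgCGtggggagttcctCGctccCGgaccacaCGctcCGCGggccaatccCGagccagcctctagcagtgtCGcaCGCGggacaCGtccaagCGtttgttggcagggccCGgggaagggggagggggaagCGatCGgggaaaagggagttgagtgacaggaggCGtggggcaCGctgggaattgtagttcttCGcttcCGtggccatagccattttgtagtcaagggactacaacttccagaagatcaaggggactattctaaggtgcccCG
Phf19: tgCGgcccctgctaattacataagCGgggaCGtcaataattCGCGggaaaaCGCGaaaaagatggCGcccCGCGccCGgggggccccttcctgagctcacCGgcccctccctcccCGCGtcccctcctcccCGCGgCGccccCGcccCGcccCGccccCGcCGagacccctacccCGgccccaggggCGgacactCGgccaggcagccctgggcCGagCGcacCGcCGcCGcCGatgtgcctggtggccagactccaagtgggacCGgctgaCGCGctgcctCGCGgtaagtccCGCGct
Mtf2: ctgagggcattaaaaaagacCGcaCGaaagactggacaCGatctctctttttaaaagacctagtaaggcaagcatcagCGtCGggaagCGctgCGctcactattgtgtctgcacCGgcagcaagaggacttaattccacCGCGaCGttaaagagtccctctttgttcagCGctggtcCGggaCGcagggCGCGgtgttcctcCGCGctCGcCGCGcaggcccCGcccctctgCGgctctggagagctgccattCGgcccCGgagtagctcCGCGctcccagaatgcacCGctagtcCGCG
Phf1: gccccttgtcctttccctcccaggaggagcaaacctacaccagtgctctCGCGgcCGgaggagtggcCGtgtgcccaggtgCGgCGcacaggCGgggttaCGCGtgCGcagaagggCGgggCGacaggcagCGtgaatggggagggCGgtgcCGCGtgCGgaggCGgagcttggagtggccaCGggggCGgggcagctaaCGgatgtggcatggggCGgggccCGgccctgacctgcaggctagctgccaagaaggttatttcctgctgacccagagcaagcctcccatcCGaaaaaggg

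The Phf19 window held 38 CpGs, a number reached by 4.95% of all 32851 promoter windows of the same length. The Mtf2 window held 30 CpGs (reached by 11.7% of windows), and the Jarid2 and Phf1 windows shown held 24 each (20%), against a median of 7 over all windows. Jarid2 has another start with 23 CpGs, and Mtf2 another with 2. Aebp2 has 3 windows, with 4, 21 and 4 CpGs. Each of the 5 genes thus had a window with 21 or more CpGs, whichever way its transcript moved. That number was reached by 24.8% of all windows, and for genes with several windows the richest was taken. It is therefore not read as a trait of the 5 genes. The counts deposited by the authors are on mm9, so no count is tied to 1 of these starts.

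Jarid2, whose protein joins the PRC2.2 form and can stimulate the core enzyme, moved most in absolute level between states. Its level peaked at day 1 in every genotype. In KO+N-KR it was 364 CPM at 3i, 809.9 CPM at day 1 and 359 CPM at day 2. In KO+WT the values were 343, 802 and 318 CPM, and in KO they were 269, 775 and 364 CPM. In f/f Jarid2 stood at 267, 789 and 351 CPM. The day 1 samples lie between 775 and 809.9 CPM and do not overlap with any 3i or day 2 sample, and the highest is 1.05 times the lowest. At 3i the spread over genotypes was wider, 1.36 times, with both rescue lines above KO and f/f.

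Against 3i, Jarid2 rose at day 1 by a log2 fold change of 1.39 ± 0.08 (SE from the fit to all 12 samples, edgeR quasi-likelihood test, adjusted p = 8.86e-09), higher in 4 of 4 genotypes. By line, the ratio of day 1 to 3i was 2.23 in KO+N-KR, 2.34 in KO+WT, 2.88 in KO and 2.96 in f/f. Against day 1, Jarid2 fell at day 2 by 1.20 ± 0.08 on the log2 scale (adjusted p = 1.24e-07), lower in 4 of 4. Against 3i, the day 2 level rose by 0.19 ± 0.08 (adjusted p = 0.0499) and was higher in only 2 of 4 genotypes. That last call is marginal: its adjusted p was 0.0521 by DESeq2, 0.0547 without a filter on low counts, 0.0992 with library totals in place of TMM, and 0.102 when only day 2 and 3i samples were fitted. It also missed the threshold without f/f (adjusted p = 0.255) and without KO (adjusted p = 0.278).

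Aebp2, a zinc finger subunit found beside JARID2 in PRC2.2, followed the same order of states with a smaller swing. It stood at 114 CPM (3i), 154 CPM (day 1) and 112 CPM (day 2) in KO+N-KR, and at 133, 150.04 and 104 CPM in KO+WT. In KO it was 123, 161 and 98.8 CPM, and in f/f 113, 137 and 96.9 CPM. The 4 samples of day 1 lie above all others, from 137 to 161 CPM, and the 4 of day 2 lie below all 3i samples, by the narrow margin of 112 against 113 CPM. Against 3i, Aebp2 rose at day 1 by 0.35 ± 0.06 (adjusted p = 0.000212, higher in 4 of 4 genotypes). Against day 1 it fell at day 2 by 0.56 ± 0.06 (adjusted p = 6.8e-06), and against 3i by 0.21 ± 0.06 (adjusted p = 0.00827), although without KO+WT that last difference was -0.17 with an adjusted p of 0.0707.

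**Figure D1:**
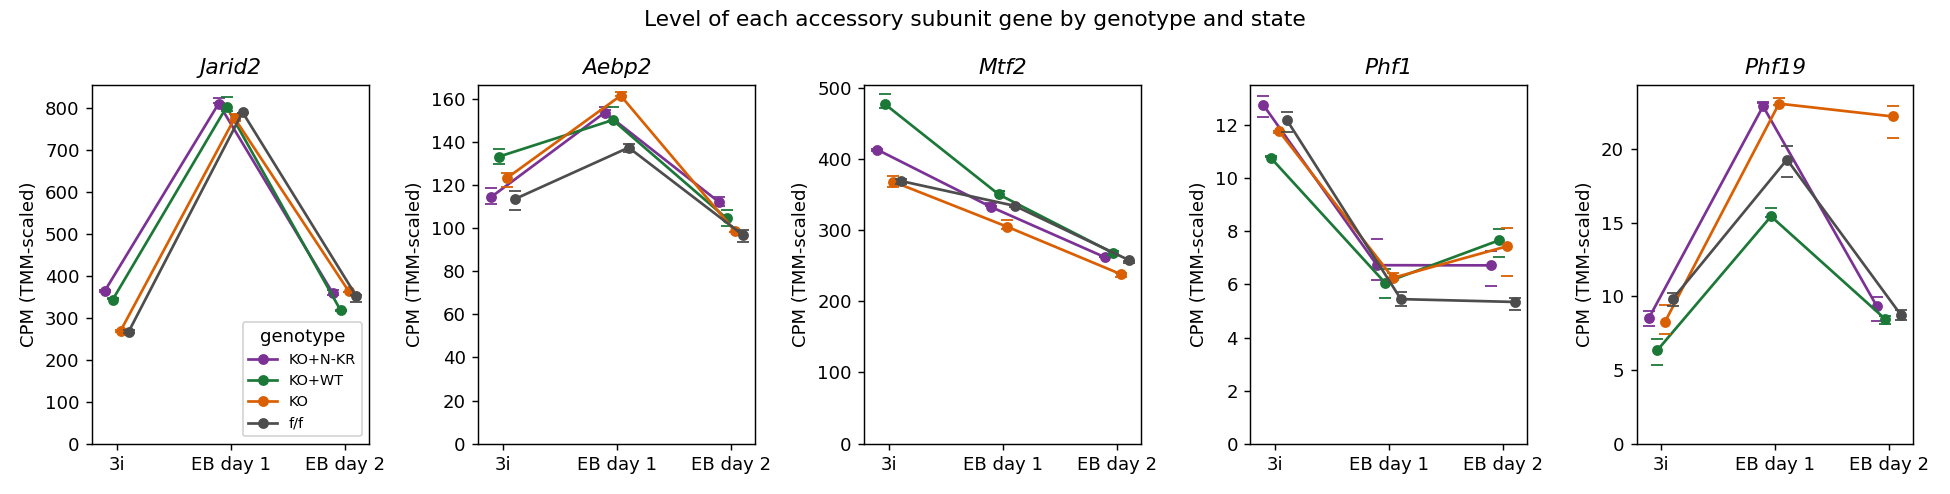
Level of each accessory subunit gene in CPM (TMM-scaled, linear axis from 0) at 3i, day 1 and day 2, with 1 line per genotype, a point for the sum of the 2 libraries and ticks for each library. Jarid2 reaches at least 775 CPM at day 1 in all 4 genotypes and Mtf2 declines over the 3 states, while for Phf19 the KO sample alone is still at 22.2 CPM at day 2.

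Mtf2, the Polycomb-like subunit that carries PRC2.1 to CpG islands in embryonic stem cells, declined step by step. It was at 413, 333 and 262 CPM at 3i, day 1 and day 2 in KO+N-KR and at 477, 350.1 and 268 CPM in KO+WT. In KO it stood at 368, 305 and 238 CPM and in f/f at 369, 334 and 258 CPM. The ranges of the 3 states do not overlap, and within each state KO+WT was highest and KO lowest. Mtf2 fell by 0.26 ± 0.05 at day 1 against 3i (adjusted p = 0.000568) and by 0.38 ± 0.05 at day 2 against day 1 (adjusted p = 5.59e-05), lower in 4 of 4 genotypes each time. Day 2 against 3i gave -0.64 ± 0.05 (adjusted p = 2.32e-07). Exons of Mtf2 overlap those of Tmed5 on the other strand over 395 bases of the GRCm38 annotation, and the strand setting of the counting is not given, so reads there cannot be assigned to either gene.

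Phf1, a Polycomb-like subunit whose Tudor domain binds methylated lysine 36 of histone H3, was a rare transcript with 107 to 303 counts in a sample. At 3i it stood at 12.8 CPM in KO+N-KR, 10.8 CPM in KO+WT, 11.8 CPM in KO and 12.2 CPM in f/f. At day 1 the values were 6.73, 6.07 and 6.25 CPM in those 3 treated lines and 5.45 CPM in f/f, and at day 2 they were 6.72, 7.66 and 7.44 CPM against 5.34 CPM in f/f. All 3i samples lie above all embryoid body samples, and the samples of day 1 and day 2 overlap. Phf1 fell at day 1 against 3i by 0.93 ± 0.12 (adjusted p = 1.06e-05, lower in 4 of 4 genotypes) and at day 2 against 3i by 0.79 ± 0.11 (adjusted p = 4.52e-05). Day 2 against day 1 gave 0.14 ± 0.12 (adjusted p = 0.346), higher in 2 of 4.

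Phf19, the third Polycomb-like subunit, was as rare, with 117 to 499 counts in a sample. At 3i it stood at 8.57 CPM in KO+N-KR, 6.33 CPM in KO+WT, 8.29 CPM in KO and 9.86 CPM in f/f. At day 1 it was 22.9 CPM in KO+N-KR, 15.4 CPM in KO+WT, 23.1 CPM in KO and 19.3 CPM in f/f, above every 3i sample. At day 2 the values were 9.32, 8.48 and 22.2 CPM in KO+N-KR, KO+WT and KO, and 8.75 CPM in f/f, so 3 genotypes were back in the 3i range and KO was not. Against 3i, Phf19 rose at day 1 by 1.31 ± 0.20 (adjusted p = 5.68e-05), higher in 4 of 4 genotypes. It fell at day 2 against day 1 by 0.80 ± 0.19 (adjusted p = 0.0032), lower in 4 of 4, with a ratio of 0.962 in KO against 0.409 in KO+N-KR, 0.552 in KO+WT and 0.456 in f/f. Day 2 against 3i gave a rise of 0.51 ± 0.20 (adjusted p = 0.0408) that rested on KO: without that line the difference was 0.13 with an adjusted p of 0.404. It also missed the threshold without KO+WT (adjusted p = 0.0894), with library totals (0.0629) and with only day 2 and 3i samples in the fit (0.0924).

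Between day 1 and 3i, then, 3 of the 5 genes rose and 2 fell, where 65.6% of all 15220 genes tested were called in 1 direction or the other. Between day 2 and day 1, 4 fell and 1 was not called, against 55.3% of genes called. Between day 2 and 3i, 2 rose and 3 fell, against 63.5% called. The median log2 fold change of the 5 genes was 0.35, -0.56 and -0.21 in these comparisons, against -0.01, 0.01 and 0.02 over all genes tested. With most genes called, these counts are not read as a result about the 5 genes. The same holds for the states whose samples did not overlap, since the share of all genes with such a separation was not counted. A change of at least 2-fold in a single line, where the higher sample had to reach 5 CPM, was seen upward at day 1 against 3i for Jarid2 in f/f (4.84% of genes). In KO (4.25%), KO+WT (5.02%) and KO+N-KR (5.84%) it was reached by Jarid2 and Phf19. Downward at the same step it was reached by Phf1 in f/f (7% of genes). Between day 2 and day 1 a fall of this size was seen for Jarid2 and Phf19 in KO+N-KR (2.87%) and f/f (2.61%), and for Jarid2 alone in KO+WT (2.49%) and KO (1.97%). At day 2 against 3i, Phf1 was lower in f/f (6.32%) and Phf19 higher in KO (5.52%) by this measure. Over the same step from 3i to day 1, 5 of the 7 feeder markers tested fell and all 4 formative epiblast genes rose, and their part in the members' differences was not tested.

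**Figure D2:**
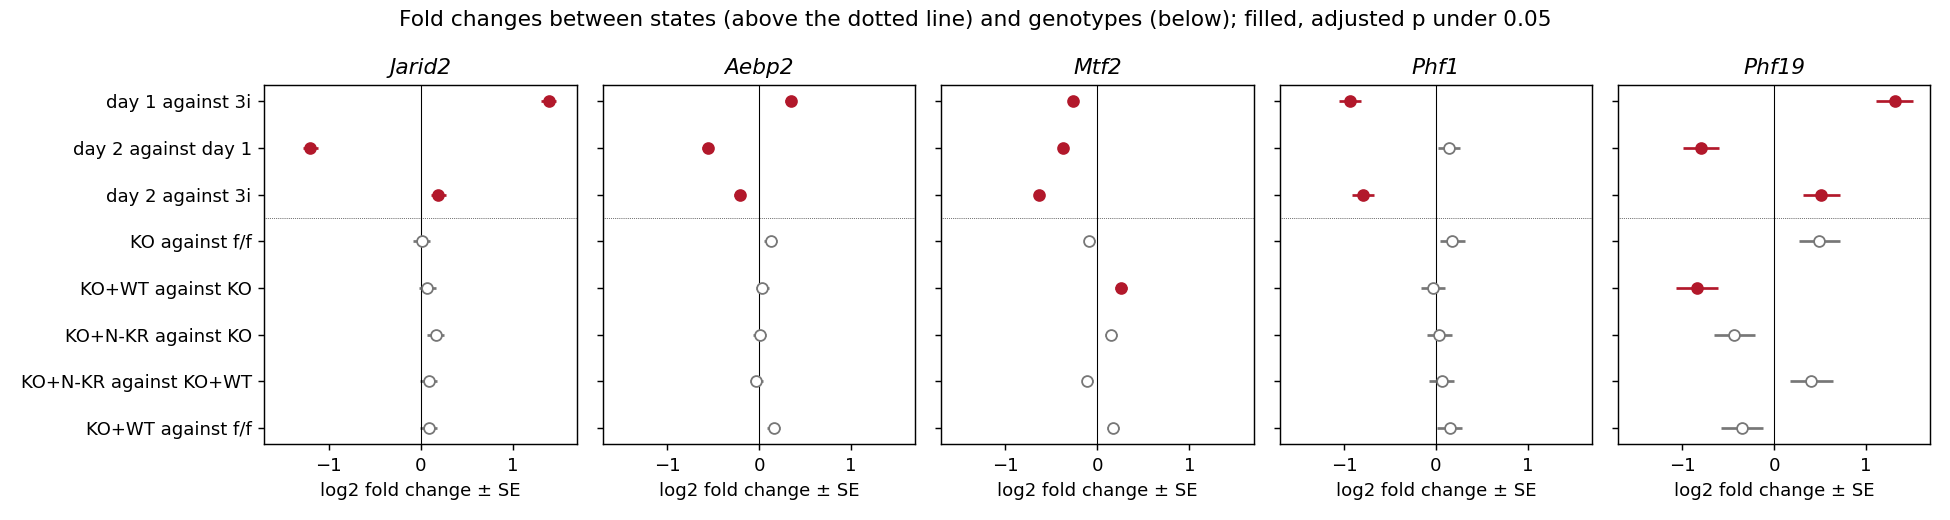
Log2 fold change ± SE of each gene from the additive fit of genotype and state to 12 samples, with comparisons of states above the dotted line and of genotypes below it. Filled points have an adjusted p under 0.05. Nearly all state comparisons are filled, but of the genotype comparisons only Mtf2 (0.26) and Phf19 (-0.84) in KO+WT against KO are.

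With Eed deleted, no accessory gene was called over the 3 states. In KO against f/f the count was 0 of 5, with 8.77% of all genes called (edgeR quasi-likelihood test, 1 of the 5 at an unadjusted p under 0.05, 0 called by DESeq2). Jarid2 differed by 0.01 ± 0.09 (adjusted p = 0.953), with KO and f/f at 269 and 267 CPM at 3i, 775 and 789 CPM at day 1 and 364 and 351 CPM at day 2. Aebp2 differed by 0.13 ± 0.07 (adjusted p = 0.265), Mtf2 by -0.09 ± 0.06 (adjusted p = 0.378) and Phf1 by 0.18 ± 0.14 (adjusted p = 0.415). Phf19 had the largest difference of the 5, 0.49 ± 0.22 (adjusted p = 0.174), and it rested on day 2. The difference was 0.023 (adjusted p = 0.942) without day 2 and 0.075 (adjusted p = 0.813) without the KO sample of day 2, and it passed the threshold when 3i was left out (0.80, adjusted p = 0.0231).

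Putting back wild-type EED went with a change of 2 Polycomb-like genes in opposite directions. Against KO, Mtf2 rose in KO+WT by 0.26 ± 0.06 (adjusted p = 0.0131), with 477 against 368 CPM at 3i, 350.1 against 305 CPM at day 1 and 268 against 238 CPM at day 2. The samples of KO+WT were thus higher in 3 of 3 states, by 1.30, 1.15 and 1.13 times. Phf19 fell by 0.84 ± 0.23 (adjusted p = 0.0243), with 6.33 against 8.29 CPM at 3i, 15.4 against 23.1 CPM at day 1 and 8.48 against 22.2 CPM at day 2, lower in 3 of 3 states. Jarid2 (0.07 ± 0.09, adjusted p = 0.632), Aebp2 (0.03 ± 0.07, adjusted p = 0.79) and Phf1 (-0.03 ± 0.13, adjusted p = 0.908) were not called. These 2 calls of 5 stand beside 15.8% of all genes called. Neither call survived every set of states. Mtf2 gave 0.18 (adjusted p = 0.0549) without 3i and 0.28 (adjusted p = 0.138) without day 1, and Phf19 gave -0.97 (adjusted p = 0.153) without day 1, -0.49 (adjusted p = 0.069) without day 2 and -0.41 (adjusted p = 0.102) without the KO sample of day 2. Cell type markers moved in the same comparison. Of 7 feeder markers tested 5 rose in KO+WT against KO, with summed levels of 600.2, 67.1 and 89.1 CPM at 3i, day 1 and day 2 in KO+WT against 388, 48.1 and 45.8 CPM in KO. Of 6 primitive endoderm markers (Gata4, Gata6, Sox17, Sox7, Dab2 and Cubn) 5 fell, to a sum of 16.4, 18.7 and 34.2 CPM in KO+WT against 21.9, 53.9 and 84.1 CPM in KO. Of the 4 formative epiblast genes Fgf5, Dnmt3b and Pou3f1 rose, and the list summed to 103, 1429 and 1513 CPM in KO+WT against 86.5, 785 and 551 CPM in KO. Their part in the differences of Mtf2 and Phf19 was not tested.

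No accessory gene passed the test between KO+N-KR and KO+WT. Of the 5, 0 were called (0 at an unadjusted p under 0.05 and 0 by DESeq2), where 0.552% of all genes were called. The differences were 0.41 ± 0.23 for Phf19 (adjusted p = 0.789), -0.11 ± 0.06 for Mtf2 (adjusted p = 0.781), 0.09 ± 0.09 for Jarid2 (adjusted p = 0.935), -0.03 ± 0.07 for Aebp2 (adjusted p = 0.985) and 0.07 ± 0.14 for Phf1 (adjusted p = 0.979). Phf19 was higher in KO+N-KR in 3 of 3 states, at 8.57 against 6.33 CPM, 22.9 against 15.4 CPM and 9.32 against 8.48 CPM. In KO+N-KR against KO, 0 of the 5 were called (1 at an unadjusted p under 0.05 and 0 by DESeq2), with 15.4% of all genes called. Mtf2 came nearest, at 0.15 ± 0.06 (adjusted p = 0.117), and was higher in 3 of 3 states. Phf19 differed by -0.43 ± 0.22 (adjusted p = 0.206). Its sign rested on day 2, since the difference was 0.02 without that state, and without 3i it was called (-0.61, adjusted p = 0.0454). In KO+WT against f/f, 0 of the 5 were called (2 at an unadjusted p under 0.05), with 8.82% of all genes called, and Mtf2 was called there (0.20, adjusted p = 0.0437) only with library totals in place of TMM among the other settings of the 12-sample fit. The comparisons with KO share the KO samples, and those with f/f the f/f samples, so they are not independent of each other.

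**Figure D3:**
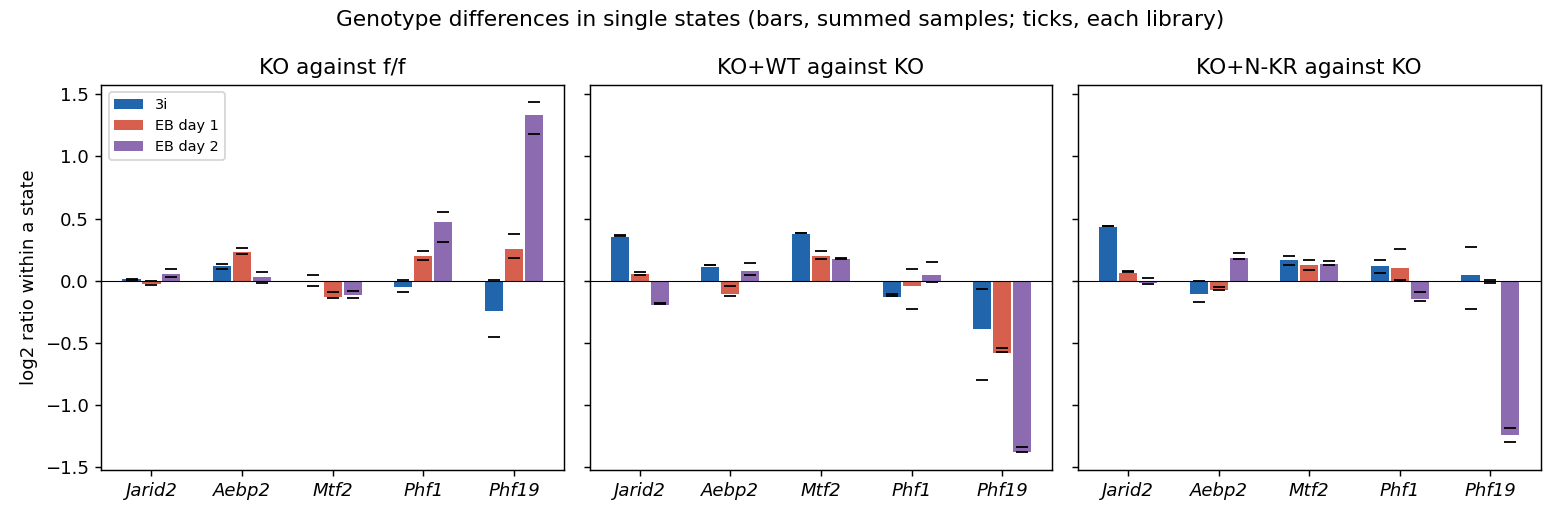
Log2 ratio of each gene within 1 state for KO against f/f, KO+WT against KO and KO+N-KR against KO. Bars give the summed samples and ticks the ratio of the libraries numbered 1 and of those numbered 2. The Phf19 bars at day 2 stand out in all 3 panels (1.34, -1.38 and -1.25), and the Jarid2 and Mtf2 bars of both rescue lines are positive at 3i.

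The Phf19 transcript of KO at day 2 stood apart from the other 3 genotypes. The 2 KO libraries gave 22.9 and 20.8 CPM (302 and 194 counts), against 8.37 and 9.05 CPM in f/f (104 and 86 counts). The libraries of KO+WT gave 8.70 and 8.13 CPM and those of KO+N-KR 9.98 and 8.34 CPM. No library of another genotype reached 10 CPM at day 2. In KO against f/f the ratio was 2.52 at day 2, with 1.8% of genes higher by at least 2-fold, against 1.20 at day 1 and 0.843 at 3i. It was 0.384 at day 2 in KO+WT against KO (1.98% of genes lower by at least 2-fold) and in KO+N-KR against KO 0.422 (2.58%). A term for KO at day 2, added to the additive model after these values were seen, gave 1.15 ± 0.21 for Phf19 with an adjusted p of 0.0558, short of the threshold that 0.112% of genes passed. The adjusted p was 0.0478 with library totals, 0.00333 without a filter on low counts, 0.00261 by DESeq2 and 0.0391 without replicate 2. Without replicate 1 the term again missed the threshold, so the call depends on these settings. For the other 4 genes the adjusted p of this term was 0.627 to 0.973. In the same KO sample formative epiblast genes summed to 551 CPM, against 1146 CPM in f/f, and primitive endoderm markers to 84.1 CPM, against 63.0 CPM in f/f. The primitive endoderm sum at day 2 was 99.2 CPM in KO+N-KR and 34.2 CPM in KO+WT. The part of these genes in the Phf19 level was not tested.

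Between genotypes, Jarid2 was spread most widely at 3i. There the libraries gave 366 and 360.5 CPM in KO+N-KR and 346 and 344 CPM in KO+WT, against 270.2 and 266 CPM in KO and 269.5 and 262 CPM in f/f. Both rescue lines therefore lay above KO and f/f in every library, by 1.35 times (KO+N-KR against KO) and 1.27 times (KO+WT against KO) in the sums. At day 1 those ratios were 1.05 and 1.04, and at day 2 they were 0.988 and 0.874. This order at 3i was not particular to Jarid2. Mtf2 stood there at 413 CPM in KO+N-KR and 477 CPM in KO+WT, against 368 CPM in KO and 369 CPM in f/f. Aebp2, Phf1 and Phf19 did not show it. The ratios within a state were not tested. The summed feeder markers at 3i were 358 CPM in KO+N-KR, 600.2 CPM in KO+WT, 388 CPM in KO and 411 CPM in f/f, and their part in the Jarid2 levels was not tested.

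Levels can be set against each other between genes only per length. On the scale of CPM per kilobase of exon (union of exons in GENCODE M21), Jarid2 and Mtf2 made up most of the accessory transcripts. Mtf2 stood at 90.7 to 117 at 3i, 75.1 to 86.2 at day 1 and 58.7 to 66.1 at day 2 over the 4 genotypes, and supplied 87.0 to 95.3% of the summed level of the 3 Polycomb-like genes. Jarid2 stood at 43.3 to 59.0, 126 to 132 and 51.6 to 59.1. Aebp2 ran from 11.9 to 19.8 over all 12 samples, Phf1 from 2.02 to 4.84 and Phf19 from 1.69 to 6.17. The order Mtf2, Jarid2, Aebp2 held in each 3i sample, and Jarid2 came first in each day 1 sample. The ratio of Jarid2 to Mtf2 was 0.474 to 0.580 at 3i, 1.51 to 1.67 at day 1 and 0.781 to 1.01 at day 2, and these ranges do not overlap. Suz12, a core subunit gene to whose product the accessory subunits bind, stood at 84.5 to 105, 73.9 to 80.0 and 63.6 to 75.9 on the same scale. At day 1 the Jarid2 level per kilobase was thus above that of Suz12 in every genotype, and at 3i and day 2 it was below.

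**Figure D4:**
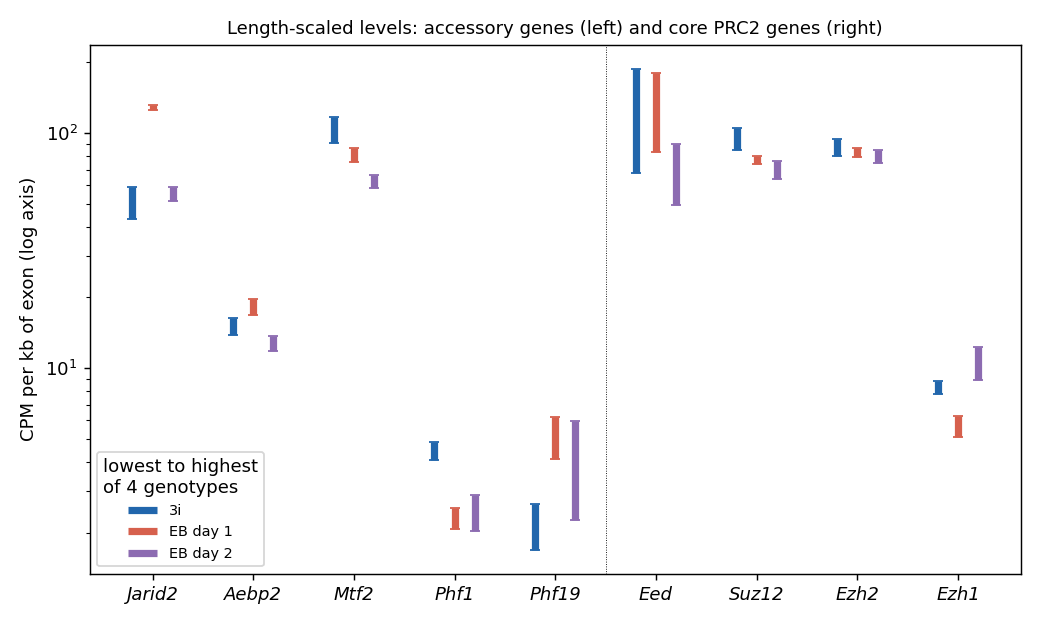
Levels in CPM per kilobase of exon on a log axis, with a bar from the lowest to the highest of the 4 genotypes in each state, for the accessory genes (left) and 4 core PRC2 genes (right). Jarid2 at day 1 (126 to 132) is above Suz12, Ezh2 and Ezh1, but the Eed bar of day 1 (83.2 to 180) spans it. The core genes Rbbp4 (112 to 140 at day 1) and Rbbp7 (125 to 149) are not drawn. Phf1 and Phf19 stay under 7 in every state.

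The other genes of the complex were read from lists. Of 6 core genes, Eed (-0.35 ± 0.10, adjusted p = 0.0479), Rbbp4 (-0.29 ± 0.05, adjusted p = 0.00938) and Rbbp7 (-0.27 ± 0.05, adjusted p = 0.0128) fell in KO against f/f, the last pair encoding histone-binding subunits, and none rose. Eed (1.17 ± 0.10) and Rbbp4 (0.27 ± 0.05) rose in KO+WT against KO, and none fell. In KO+N-KR against KO+WT, Eed alone of the 6 was called (-0.97 ± 0.10, adjusted p = 0.000301). Rbbp4 (0.21 ± 0.05) and Rbbp7 (0.24 ± 0.05) rose in KO+N-KR against KO, and none fell. Eed was not called there (0.20 ± 0.10, adjusted p = 0.191). Eed alone was called in KO+WT against f/f, where it rose (0.82 ± 0.10, adjusted p = 0.000224). At day 1 against 3i, Rbbp4 rose (0.23 ± 0.04) while Suz12 (-0.23 ± 0.07) and Ezh1 (-0.50 ± 0.08), the gene of the alternative enzyme, fell. At day 2 against day 1, Ezh1 (0.83 ± 0.07) and Rbbp7 rose and Eed, Suz12 and Rbbp4 fell. At day 2 against 3i, Ezh1 (0.33 ± 0.07) and Rbbp7 (0.14 ± 0.04) rose, while Eed (-0.59 ± 0.09), Suz12 (-0.41 ± 0.07) and Ezh2 (-0.12 ± 0.04) fell. Of all genes tested, 65.6% (day 1 against 3i), 55.3% (day 2 against day 1) and 63.5% (day 2 against 3i) were called. With most genes called, the calls between states are not read as a result about the core genes. In the genotype comparisons, in the order given above, 8.77%, 15.8%, 0.552%, 15.4% and 8.82% of all genes were called.

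Of 5 other PRC2-associated genes, 4 were in the table, and none of these was called in any genotype comparison. Epop, an elongin-binding subunit of PRC2.1 listed in the table as E130012A19Rik, had a peak at day 1 as Jarid2 did. It was at 104, 230.2 and 104 CPM at 3i, day 1 and day 2 in KO+N-KR, at 150.2, 233 and 98.1 CPM in KO+WT, at 117, 318 and 125 CPM in KO and at 116, 268 and 108 CPM in f/f. Epop rose by 1.13 ± 0.10 at day 1 against 3i (adjusted p = 6.03e-07) and fell by 1.28 ± 0.10 at day 2 against day 1 (adjusted p = 6.34e-07). Lcorl fell at day 1 (-0.38 ± 0.06) and rose at day 2 against day 1 (0.48 ± 0.06), and Ezhip, an inhibitor of the complex listed as AU022751, rose at day 2 against day 1 (1.02 ± 0.16). Lcor was not called in any of the 8 comparisons. All 3 genes of the H3K27 demethylase list, Kdm6a, Kdm6b and Uty (a Y-linked relative of Kdm6a), rose at day 1 against 3i. They also rose in KO+WT against KO, by 0.39 ± 0.07, 0.41 ± 0.09 and 0.69 ± 0.08. Of all genes tested, 65.6% and 15.8% were called in these comparisons. Uty fell in KO against f/f (-0.40 ± 0.08). Kdm6a and Uty also rose in KO+N-KR against KO and in KO+WT against f/f.

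Across the 12 samples the 5 genes varied together in part. Pearson's r of log2 CPM was 0.80 between Jarid2 and Aebp2, 0.78 between Jarid2 and Phf19 and 0.61 between Mtf2 and Phf1, and it was -0.66 between Jarid2 and Phf1. These are descriptions over 12 samples that share 3 states and 4 lines. Among 10739 genes with a mean of at least 5 CPM, those most like Jarid2 were Fubp3 (0.991), Pou2f1 (0.986) and Ehmt2 (0.981). Those most like Aebp2 were Olig2 (0.992), Etv6 (0.967) and 1300001I01Rik (0.961), and for Mtf2 they were Pex3 (0.977), Ubxn2a (0.976) and Zfp59 (0.966). The nearest to Phf1 were Arhgap23 (0.978), Cpsf4l (0.977) and Zbtb7a (0.976), and to Phf19 Avpi1 (0.943), Csrp2 (0.939) and Llph (0.927), the lowest values of the 5.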

How the data were processed

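The authors deposited 1 table of raw counts per gene symbol. Per the submitters' processing notes STAR 2.5.2b and DESeq2 were used, on mm9. No source used here names the counting tool, its strand setting or the annotation. Of 30 columns, the 24 whose names match libraries were used and 6 were not used. The libraries of each group were summed, and edgeR (4.0.16) was fitted to the 12 sums in R (4.3.3): TMM scaling, filterByExpr, additive genotype and state terms, quasi-likelihood F-test with 6 residual degrees of freedom, Benjamini-Hochberg adjustment over 15220 genes, threshold 0.05. The common coefficient of variation was 7.97%. Standard errors are the absolute log2 fold change over the square root of F. Genotype p-values thus set a mean difference over 3 states against the departures of the 12 samples from the additive fit. State p-values do so for a mean difference over 4 genotypes. Neither measures the spread between independent lines. CPM are TMM-scaled, and ratios use a prior count of 2. The fit was run on simulated counts with no state effect and the same KO fold in every state. That run does not probe genotype differences that change between states.

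Members and lists were chosen with earlier results of these data known. Named genes were the members, called genes of the lists, and the 3 genes of highest r with each member. Alternatives were DESeq2 (1.42.0), library totals, no count filter (at least 1 read), only the groups compared, 24 libraries with and without a replicate block, and leaving out each replicate, state or line. States were left out for genotype comparisons only, and lines for state comparisons only. The term for KO at day 2, and leaving out that sample, were added after seeing the data. Numbered libraries showed no pairing. Exon lengths come from GENCODE M21 and promoters from RefSeq, both on GRCm38, so no coordinate comes from the count table.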

Additional observations from a re-analysis of the deposited data

Results flagged for a closer look

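Phf19 in KO at day 2, at 22.2 CPM against 8.48 to 9.32 CPM in the other 3 genotypes, lay far from the rest of its state: its gap to the nearest was 0.939 of the whole range, above Dixon's critical value for 4 samples at the 95% level. Of 15 sets of gene and state this was the only 1 past that value, and chance flags about 1 in 20.

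The remaining results turned direction between states. Their differences between states were not tested, and each ratio was beyond 2 counting errors with both libraries of the same sign. Counting error covers the sampling of reads alone. Between genotypes of a state the variance was 2.81 to 11.3 times that of binomial sampling, and the common coefficient of variation of the fit was 7.97%. Passing this bar thus does not set a turn apart from the spread between samples. The share of all genes that turn in this way was not counted. In KO+WT against KO, the log2 ratio of Jarid2 was 0.35 at 3i, 0.050 at day 1 and -0.19 at day 2. Against f/f, that of KO+WT was 0.36 at 3i and -0.14 at day 2. The log2 ratio of Aebp2 was 0.11 at 3i and -0.10 at day 1 in KO+WT against KO, and -0.22 at 3i and 0.10 at day 2 in KO+N-KR against KO+WT. In KO+N-KR against KO it was -0.11 at 3i, -0.072 at day 1 and 0.18 at day 2.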

How the results depend on the processing

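The calls of states were the steadier ones. All 5 calls of day 1 against 3i and the 4 of day 2 against day 1 held under every alternative run, and of the 5 calls of day 2 against 3i, 3 were left with library totals, 3 with only the groups compared and 3 to 5 when a line or replicate was left out. For genotypes, leaving out a state or a replicate gave 0 to 1 members called in KO against f/f. It gave 0 to 2 in KO+WT against KO and 0 to 1 in KO+N-KR against KO. Without the KO sample of day 2, 1 was called in KO+WT against KO. With library totals, 1 was called in KO+WT against f/f.

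The replicate numbers do not pair the samples: over 66 pairs of groups the deviations correlated between -0.04 and 0.04. Fitted as 24 libraries, whose spread is near that of repeated sequencing, with and without the replicate block, 3 members were called in KO against f/f, 3 in KO+N-KR against KO+WT, 3 in KO+N-KR against KO and 4 in KO+WT against f/f, and 14 of 40 member differences gained a call with the block and 14 without it. Over all genes these fits called 7225 and 7201 (KO against f/f, 1335 in the 12 sums), 7526 and 7493 (KO+WT against KO, 2410 in the sums), 2980 and 2918 (KO+N-KR against KO+WT, 84), 7575 and 7543 (KO+N-KR against KO, 2350), and 6606 and 6571 (KO+WT against f/f, 1343).

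Without day 1 the 12-sample counts were 0 (2272 at an unadjusted p under 0.05), 225, 30, 328 and 175 in the same order. Without day 2 they were 339 in KO against f/f, 1263 in KO+WT against KO and 1105 in KO+N-KR against KO, and without the KO sample of day 2 they were 283, 1455 and 1410. With only the groups compared they were 863 in KO against f/f, 210 in KO+N-KR against KO+WT and 918 in KO+N-KR against KO. DESeq2 called 132 genes in KO+N-KR against KO+WT, and 789 were called in KO against f/f without replicate 1. The cause was not tested, beyond the smaller number of samples.

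Signs turned only for differences that were not called. Without the KO sample of day 2, Jarid2 was at -0.068 in KO against f/f, Aebp2 at -0.025 and Phf1 at 0.022 in KO+WT against KO, and Aebp2 at -0.055 in KO+N-KR against KO, where library totals gave -0.016. When a state or replicate was left out, the range was -0.012 to 0.031 for Jarid2 in KO against f/f. For KO+WT against KO it was -0.072 to 0.21 for Jarid2, -0.018 to 0.11 for Aebp2 and -0.079 to 0.0049 for Phf1. In KO+N-KR against KO+WT it was -0.096 to 0.072 for Aebp2 and -0.024 to 0.20 for Phf1. In KO+N-KR against KO it was -0.083 to 0.054 for Aebp2, -0.019 to 0.12 for Phf1 and -0.68 to 0.021 for Phf19. The range for KO+WT against f/f was -0.055 to 0.20 for Jarid2 and -0.035 to 0.35 for Phf1, and for day 2 against day 1 it was -0.031 to 0.29 for Phf1. By Spearman's rho, 2 of the 3 nearest genes were the same for Aebp2, 1 for Phf1, 1 for Phf19, and 0 for Jarid2 and Mtf2. Phf1 and Phf19 rest on 107 to 499 counts per sample, where counting error is widest.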
